A study of Mus musculus with 35 samples.

Results

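The combined loss of E2f7 and E2f8 in hepatocytes was set against the sum of the 2 single losses in mouse liver at 2 months of age. For each gene the interaction was computed as the E2f7/E2f8 knockout minus the E2f7 knockout minus the E2f8 knockout plus the wild type. A value of 0 on the log2 scale means that the effects of the single losses add up. A positive value means that the gene stood higher in the combined knockout than that sum, and a negative value that it stood lower. The comparison used 15 of the 35 arrays of the study and 18193 genes, each measured by its brightest probe set among those with a single gene symbol.

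The 15 livers came from mice of the FVB background at 2 months of age. Albumin-Cre, which is active in hepatocytes, had deleted E2f7 in 4 samples (genotype Albumin-Cre E2f7loxp/loxp), E2f8 in 4 samples (Albumin-Cre E2f8loxp/loxp) and both genes in 4 samples (Albumin-Cre E2f7loxp/loxp E2f8loxp/loxp). The other 3 samples were wild-type controls, numbered 1 to 3. The labels do not say whether the wild type carried Cre or loxP sites. They also do not say that each array was a different animal. P-values therefore measure only the spread between samples, pooled over all 35 arrays of the study, the 3-week arrays included. Wild-type samples 4 and 5 of the same age had another distribution of values and were left out of the comparison. The same 4 genotypes at 3 weeks, with 3 wild-type samples and 4 samples of each knockout, were used to look at the interaction at another age. Whole liver was assayed, so liver cells in which Cre was not active keep both genes. Fewer cells of a type cannot be told apart from less RNA per cell.

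E2f7 and E2f8 are atypical E2F transcription factors. They repress E2F target genes without a dimerisation partner of the DP family, act as homodimers or as heterodimers with each other, and can stand in for one another. In the liver they are known for promoting the switch to polyploid hepatocytes, in which DNA is replicated without cell division. The comparison asks which genes responded to the combined loss by more or less than the sum of the single losses.

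Array values are log2 signals, and the level of one probe set cannot be set against that of another. All 7 hepatocyte markers examined, albumin among them at 14.75 to 14.85, ranked above 97.8% or more of genes on average, and none had an interaction past the threshold. Correlations between the 15 arrays lay between 0.991 and 0.998. The deleted genes gave no clean check of the labels, since the place of their probes relative to the deleted exons is not stated in the labels or files. E2f7 read 5.41, 5.63 and 5.78 in the wild type and between 5.17 and 5.89 in the E2f7 knockout, a difference of -0.17 (adjusted p = 0.907). E2f8 read 7.75, 7.44 and 8.58 in the wild type and 9.65, 10.01, 10.56 and 10.30 in the E2f8 knockout, so its signal was higher where the gene was deleted. It rose by 2.20 with E2f7 present (adjusted p = 0.00179) and by 1.88 with E2f7 absent (adjusted p = 0.0110). Gm2788, a long non-coding RNA gene whose RefSeq annotation overlaps E2f8 and which was chosen after its values were seen, went the other way and fell by 3.32 with E2f7 present and by 2.78 with E2f7 absent (adjusted p = 0.000126 and 0.00155). Neither E2f7 nor E2f8 had an interaction past the threshold (0.18 and -0.33, adjusted p = 0.870 and 0.909).

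At 2 months 199 genes had an interaction at an adjusted p under 0.05 in a linear model fitted across all genes with limma, 1.09% of those tested. The interaction was positive for 107 (0.588%) and negative for 92 (0.506%), and for 141 and 49 in a fit without a term for the distribution of wild-type samples 4 and 5, which then enter the wild-type mean. At an unadjusted p under 0.05 there were 1964 genes. The count turned on single arrays. It was 60 without wild-type sample 1, 64 without wild-type sample 2, 106 without E2f7/E2f8 knockout sample 1, 127 without E2f8 knockout sample 4, 132 without E2f7 knockout sample 1 and 268 without wild-type sample 3, and 45 of the 199 genes were past the threshold in each of the 15 fits that left out 1 array. At the threshold itself, Sult1b1 and Cmbl lay just inside (-0.80 and -0.56, adjusted p = 0.0483 and 0.0493), and Pxk and Oas1a just outside (0.60 and 0.79, adjusted p = 0.0509 and 0.0512).

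The interactions had one shape. In 196 of the 199 genes (98.5%) the means of both single knockouts lay on the same side of the wild type and of the E2f7/E2f8 knockout, which held for 41.3% of all genes. Where the interaction was positive, both single knockouts were below the wild type and the combined knockout in 105 of 107 genes. Where it was negative, both were above in 91 of 92. This description was chosen after the values were seen, and a shape of this kind gives a large interaction by its construction. The arrays themselves were fully apart, with all 8 single-knockout arrays on one side of the other 7, in 29 of the 199 genes (14.6%) and in 60 of all genes (0.33%). The 3 genes without this shape were Pim1, Trhde and Yae1d1.

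The 4 single steps that make up the interaction were read for the same genes. Loss of E2f7 with E2f8 absent changed 116 genes (0.638% of all), of which 67 rose (0.368%) and 49 fell (0.269%). Loss of E2f8 with E2f7 present changed 64 (0.352%), with 38 up (0.209%) and 26 down (0.143%), and loss of E2f8 with E2f7 absent changed 43 (0.236%), with 22 up (0.121%) and 21 down (0.115%). Loss of E2f7 with E2f8 present changed 1 gene, Yae1d1, which rose (0.0055%), and by limma no gene fell (0%), with 593 lower at an unadjusted p under 0.05. Of the 107 genes with a positive interaction, 41, 18, 14 and 0 passed in these 4 steps in the order given, with median differences of 0.44, -0.41, 0.40 and -0.34. Of the 92 with a negative one, 33, 22, 16 and 1 passed, with medians of -0.53, 0.50, -0.39 and 0.41. The interaction is made of these steps, so the counts describe it and are no further test of it. They too turned on single arrays, with 14 to 137, 7 to 100, 4 to 68 and 0 to 39 genes over all when 1 array was left out. The first 3 were lowest without E2f8 knockout sample 4, wild-type sample 2 and E2f7/E2f8 knockout sample 3, and the last was 0 without E2f7 knockout sample 1 or 2 or wild-type sample 1 or 2. With the 15 arrays alone the first 3 counts were 159, 111 and 4. With wild-type samples 4 and 5 in the wild-type mean the 4 counts were 56, 282, 2 and 40, and with array weights 797, 252, 431 and 59.

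The positive interactions were led by genes of the acute phase response, the set of plasma proteins that hepatocytes secrete after injury or infection. Of 25 measured members of this list, 10 had a positive interaction past the threshold (40%, against 0.588% of all genes), namely Saa1, Saa2, Orm2, Orm3, Lcn2, Hpx, Hp, Itih3, Itih4 and Lbp. None had a negative one, 24 of the 25 estimates were above 0, and the median was 0.58, against -0.03 over all genes. At an unadjusted p under 0.05 there were 18 members, all positive. The members were 6 past the threshold when wild-type sample 1 was left out and 13 in the most generous of the 15 fits. Saa1 and Saa2, and Orm2 and Orm3, are near-identical copies, so their probe sets may share signal and their separate values are uncertain.

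The level of Saa2, a serum amyloid A that binds high-density lipoprotein, was 13.28, 13.33 and 8.72 in the wild type. It was 8.72, 8.53, 9.19 and 8.46 in the E2f7 knockout, 7.84, 8.42, 8.69 and 7.99 in the E2f8 knockout, and 12.82, 11.40, 11.57 and 9.63 in the E2f7/E2f8 knockout. Wild-type samples 1 and 2 and all 4 samples of the combined knockout were above every single-knockout array, while wild-type sample 3 lay among the single knockouts. The interaction was 6.17 (SE 1.07, adjusted p = 0.00355), a 72.1-fold departure from additivity. The level of Lcn2, an iron-siderophore-binding protein, was 11.70, 11.64 and 6.52 in the wild type and 11.01, 9.29, 9.03 and 7.50 in the combined knockout. The single knockouts lay between 6.31 and 7.47, so wild-type sample 3 was again among them. Its interaction was 5.71 (SE 1.08, adjusted p = 0.00629). Orm2, an orosomucoid, read 11.28, 9.82 and 6.50 in the wild type, 9.45, 7.58, 7.83 and 6.53 in the combined knockout and 5.75 to 6.22 in the single knockouts. Here the 8 single-knockout arrays were all below the other 7, and the interaction was 5.11 (SE 0.81, adjusted p = 0.00137). Saa1 read 14.01, 13.88 and 10.82 in the wild type, 13.89, 13.25, 13.41 and 12.30 in the combined knockout and 10.05 to 11.64 in the single knockouts, with an interaction of 4.85 (SE 0.74, adjusted p = 0.00114). Of the single steps, Saa1 fell by 2.66 on loss of E2f8 from the wild type (adjusted p = 0.0244) and rose by 2.96 on loss of E2f7 from the E2f8 knockout (adjusted p = 0.00401). Its differences of -1.89 and 2.20 for the other 2 steps did not pass (adjusted p = 0.305 and 0.0509). All 4 genes stayed past the threshold in each of the 15 fits that left out 1 array. With the spread of the 15 arrays alone the adjusted p was larger, at 0.0227, 0.0413, 0.0295 and 0.0114 for Saa2, Lcn2, Orm2 and Saa1.

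**Figure D1:**
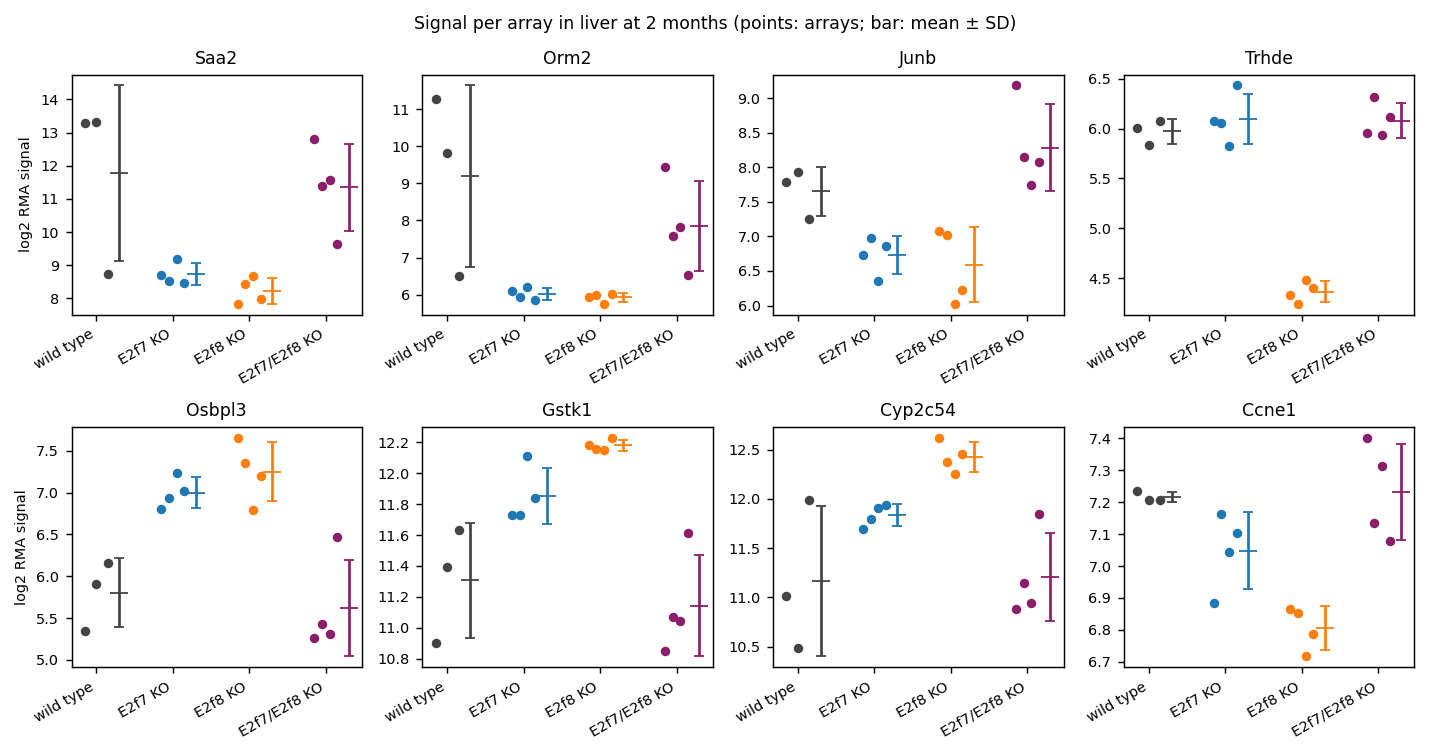
Log2 RMA signal of Saa2, Orm2, Junb, Trhde, Osbpl3, Gstk1, Cyp2c54 and Ccne1 in each of the 15 arrays at 2 months, by genotype, with 1 point per array and the mean ± SD beside each group. For Saa2 wild-type sample 3 lies with the single knockouts, for Osbpl3 and Gstk1 all single-knockout arrays are above the others, and for Trhde the E2f8 knockout alone is low.

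The mean level over the 25 acute phase genes was 12.42, 12.34 and 11.27 in the wild type, 11.15 to 11.37 in the E2f7 knockout, 11.21 to 11.29 in the E2f8 knockout and 12.36, 11.75, 11.79 and 11.50 in the combined knockout. Wild-type samples 4 and 5, which belong to the other distribution, read 11.38 and 12.22, so a low and a high wild-type liver were found there too. With wild-type samples 1 and 2 left out, 1 gene of the whole array (Osbpl3) had an interaction past the threshold. With E2f7/E2f8 knockout samples 1, 2 and 3 left out there were 4 (Arhgef19, Gdpd3, Osbpl3 and Tes), and with all 5 of these arrays left out there was none by limma, with 638 genes at an unadjusted p under 0.05. These arrays were chosen after the values were seen, for their high levels. Each of these fits leaves 1 sample in an arm, which is assumed to vary like the other groups, so a lost call can come from fewer arrays and says nothing of its cause. In that last fit the 199 genes kept the sign of their interaction, at a median of 0.636 times its size, and the Saa2 estimate was 1.39. The genes were chosen by the same contrast and the fit shares arrays with it, so the kept signs are no further test. In the 3 fits the median was 0.16 to 0.48 over the acute phase list and -0.59 to -0.35 over the xenobiotic list, and no member of either was among the genes named here as past the threshold.

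**Figure D2:**
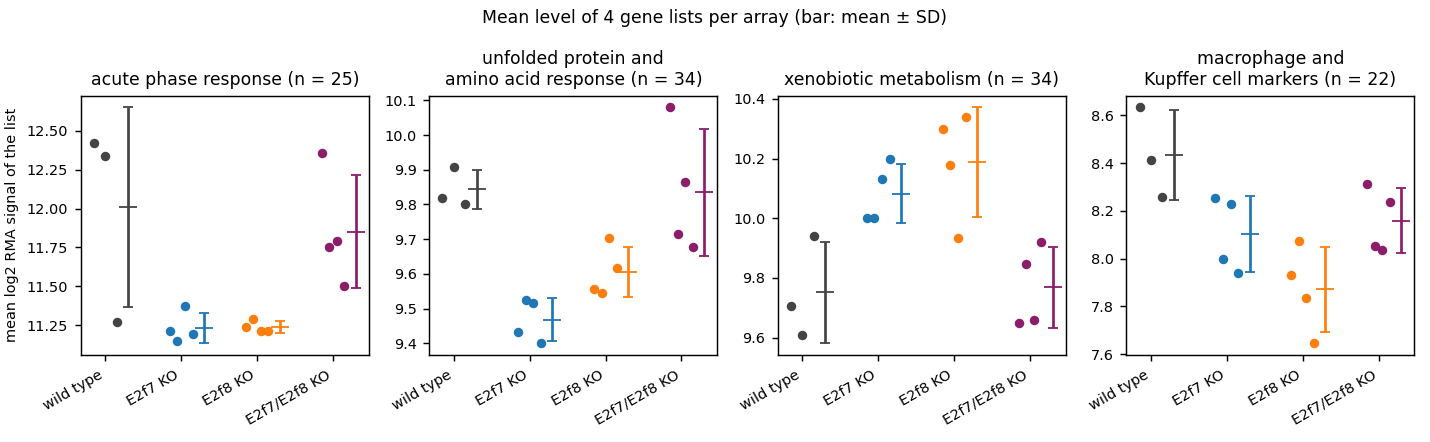
Mean log2 RMA signal over the measured genes of 4 lists in each of the 15 arrays at 2 months, by genotype, with 1 point per array and the mean ± SD beside each group. Acute phase genes are highest in wild-type samples 1 and 2 and E2f7/E2f8 knockout sample 1 (12.34 to 12.42). Xenobiotic genes are low in the same arrays (9.61 to 9.71). They are as low in E2f7/E2f8 knockout sample 3 (9.66), where acute phase genes read 11.79.

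The promoters of the 4 leading acute phase genes are shown because these genes stood apart together in the same arrays and because their copies can be compared. Each is the 250 bases before the RefSeq transcription start in the GRCm38.p6 assembly, 5′ to 3′ on the gene's strand. Capitals mark a match to TTGCNNAA, a core bound by C/EBP factors, which control acute phase genes. The positions are chr7:46742981-46743230 (minus strand) for Saa1, chr7:46751583-46751832 (plus strand) for Saa2, chr4:63362199-63362448 (plus strand) for Orm2 and chr2:32387740-32387989 (minus strand) for Lcn2.
Saa1: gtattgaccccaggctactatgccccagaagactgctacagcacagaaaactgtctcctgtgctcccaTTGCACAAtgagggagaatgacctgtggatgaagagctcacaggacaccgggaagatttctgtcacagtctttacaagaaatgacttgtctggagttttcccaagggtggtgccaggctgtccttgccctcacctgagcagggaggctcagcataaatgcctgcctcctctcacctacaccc
Saa2: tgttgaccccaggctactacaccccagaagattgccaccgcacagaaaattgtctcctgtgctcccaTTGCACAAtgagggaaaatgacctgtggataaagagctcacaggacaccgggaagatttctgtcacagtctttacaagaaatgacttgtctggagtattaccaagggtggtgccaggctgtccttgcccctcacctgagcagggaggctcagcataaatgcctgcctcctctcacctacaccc
Orm2: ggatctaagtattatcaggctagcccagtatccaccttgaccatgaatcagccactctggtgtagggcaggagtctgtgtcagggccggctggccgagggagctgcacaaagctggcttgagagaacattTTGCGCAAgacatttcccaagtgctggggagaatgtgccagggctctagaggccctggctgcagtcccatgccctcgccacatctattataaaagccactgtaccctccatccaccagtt
Lcn2: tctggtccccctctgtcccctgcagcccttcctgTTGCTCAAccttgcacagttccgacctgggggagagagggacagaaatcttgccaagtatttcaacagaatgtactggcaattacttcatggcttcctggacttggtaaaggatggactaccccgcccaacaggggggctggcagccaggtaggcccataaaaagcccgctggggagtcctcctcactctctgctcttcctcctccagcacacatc
The match begins 182, 183, 120 and 216 bases before the start in Saa1, Saa2, Orm2 and Lcn2. Of the 22 acute phase genes with a promoter in the RefSeq table, 12 held such a match on either strand (54.5%), as did 1394 of the 14452 measured genes with one (9.65%). Among genes with an interaction the share was 21.2% for positive and 9.59% for negative ones, and among xenobiotic genes it was 9 of 31 (29%). The STAT core TTCNNNGAA was found in 7 of the 22 (31.8%) and in 7.42% of all. Among genes with positive and negative interactions its share was 7.5% and 9.59%. The NF-kB motif GGGRNNYYCC (R for A or G, Y for C or T) was in 1 of the 22 (4.55%) and in 10.1% of all. Its share was 15% and 8.22% among genes with positive and negative interactions. The E2F sites TTTCCCGC, TTTGCCGC, TTTCGCGC and TTTGGCGC, counted together on both strands, were in 22.2% of DNA replication promoters, in 3.15% of all and in 2 of 80 (2.5%) and 0 of 73 promoters of genes with positive and negative interactions. A match describes these letters in this window and not a bound site.

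The other genes among the 15 largest positive interactions have different roles. Fgl1, a fibrinogen-like protein secreted by hepatocytes, read 13.51, 13.83 and 11.17 in the wild type, 11.04 to 11.84 in the single knockouts and 12.35 to 13.79 in the combined knockout. Its interaction was 2.67 (SE 0.47, adjusted p = 0.00366), and wild-type sample 3 was again with the single knockouts. Junb, a subunit of the AP-1 transcription factor, read 7.78, 7.93 and 7.25 in the wild type and 9.18, 8.14, 7.74 and 8.08 in the combined knockout. All 8 single-knockout arrays were lower, at 6.03 to 7.08, and the interaction was 2.62 (SE 0.51, adjusted p = 0.00785). Igfbp1, which binds insulin-like growth factors, had an interaction of 3.42 (SE 0.73, adjusted p = 0.0140), which was lost without wild-type sample 2 (adjusted p = 0.0827). Tnfaip3, an inhibitor of NF-kB signalling, had one of 2.25 (SE 0.46, adjusted p = 0.0103), lost without wild-type sample 1 or 2 (adjusted p up to 0.0652). Nfkbiz, Usp18 and Nr1d1, which respectively modulate NF-kB, remove the interferon-induced ISG15 tag and repress clock genes, had values of 1.79, 1.97 and 1.70 (adjusted p = 0.0442, 0.0231 and 0.0273). They lost their calls in 12, 5 and 8 of the 15 fits. Nfkbiz also lost its call when wild-type samples 4 and 5 entered the wild-type mean (1.52, adjusted p = 0.0914). Usp18 was the single member past the threshold of 31 interferon response genes (3.23%, against 0.588% of all genes), with 9 positive and 1 negative at an unadjusted p under 0.05. Junb and Igfbp1 were those of 29 immediate early and stress genes (6.9%).

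Genes of the unfolded protein and amino acid response, which raise folding capacity in the endoplasmic reticulum, had positive interactions in 6 of 34 members (17.6%, against 0.588% of all genes), with 30 of 34 estimates above 0 and a median of 0.56. The 6 were Dnajb11, Sdf2l1, Atf5, Pdia6, Herpud1 and Calr, and 22 members, all positive, had an unadjusted p under 0.05. This count fell to 1 without wild-type sample 1 or 2, to 2 without E2f7 knockout sample 1, E2f8 knockout sample 2 or E2f7/E2f8 knockout sample 1, and to 3 in 5 further fits. Dnajb11, a co-chaperone of BiP, read 11.06, 10.62 and 10.66 in the wild type, 10.05 to 10.54 in the single knockouts and 11.09, 11.05, 11.36 and 10.45 in the combined knockout. Its interaction of 1.17 (SE 0.24, adjusted p = 0.0123) was lost without wild-type sample 1 (adjusted p = 0.0699). Sdf2l1, part of a chaperone complex of the endoplasmic reticulum, had the largest value of the list, 1.56 (SE 0.35, adjusted p = 0.0205, lost in 3 of 15 fits). Pdia6 lost its call when the probe sets of each gene were averaged (adjusted p = 0.536). None of 15 heat shock genes passed by limma, although 14 estimates were above 0, with a median of 0.53 and 7 at an unadjusted p under 0.05.

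The negative interactions included enzymes of xenobiotic metabolism, the cytochrome P450 and glutathione transferase genes that modify and conjugate foreign compounds. Of 34 measured members 10 passed (29.4%, against 0.506% of all genes), all negative, namely Cyp2c38, Cyp2c39, Cyp2c50, Cyp2c54, Gsta2, Gsta4, Gstm1, Gstt1, Gstt2 and the nuclear receptor gene Nr1i3. The median was -0.56 and 29 of 34 estimates were below 0. Without wild-type sample 1 there were 4, without wild-type sample 2 there were 3, and with wild-type samples 4 and 5 in the wild-type mean there were 2, with a median of -0.27. In that fit Cyp2c54, Gsta2, Gstt1, Cyp2c38 and Cyp2c50 had adjusted p of 0.194, 0.150, 0.121, 0.0558 and 0.710, and the Cyp2c50 value was -0.33 in place of -1.16. Cyp2c and Gsta genes are close paralogs whose probe sets may share signal. Cyp2c54 read 11.02, 10.49 and 11.99 in the wild type, 11.69 to 11.94 in the E2f7 knockout, 12.25 to 12.62 in the E2f8 knockout and 10.88, 11.15, 10.94 and 11.85 in the combined knockout. Wild-type sample 3 and combined knockout sample 4 lay within the range of the E2f7 knockout or close to it. The interaction was -1.89 (SE 0.30, adjusted p = 0.00137). Gsta2 read 8.22, 8.41 and 10.13 in the wild type, 9.53 to 10.66 in the single knockouts and 8.36, 9.04, 8.41 and 9.71 in the combined knockout. Its value of -2.69 (SE 0.57, adjusted p = 0.0133) was lost without wild-type sample 1 or 2 (adjusted p up to 0.0791), as was that of Cyp2c39 (-2.50, SE 0.55, adjusted p = 0.0178).

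Of 26 PPAR alpha targets and fatty acid oxidation genes, 3 passed with negative interactions (11.5%, against 0.506% of all genes): Acaa1b, a peroxisomal thiolase, and the acyl-CoA thioesterases Acot1 and Acot2. Acaa1b read 13.42, 13.22 and 13.90 in the wild type, 13.76 to 14.15 in the single knockouts and 13.20 to 13.66 in the combined knockout, with an interaction of -1.03 (SE 0.16, adjusted p = 0.00114) that held in each of the 15 fits. None of the 3 passed with wild-type samples 4 and 5 in the wild-type mean (adjusted p = 0.233, 0.236 and 0.195 for Acaa1b, Acot1 and Acot2). Acot1 had -2.23 (SE 0.53, adjusted p = 0.0308) and lost its call in 10 of the 15 fits. The count was 1 without wild-type sample 1 or 2, E2f7 knockout sample 4 or E2f8 knockout sample 2, 5 without sample 3 of either single knockout, and 7 without wild-type sample 3. Of 28 fatty acid and triglyceride synthesis genes, the elongase gene Elovl5 alone passed (3.57%; -0.92, SE 0.21, adjusted p = 0.0206, lost in 5 of 15 fits). The estimate was below 0 for 27 of the 28, with a median of -0.53 and 14 at an unadjusted p under 0.05. With the 15 arrays alone 6 of the 28 passed, all negative.

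The smallest adjusted p belonged to Osbpl3, an oxysterol-binding-protein-related lipid transfer protein. It read 5.35, 5.91 and 6.16 in the wild type, 6.80, 6.94, 7.24 and 7.02 in the E2f7 knockout, 7.66, 7.35, 6.80 and 7.20 in the E2f8 knockout, and 5.27, 5.43, 5.31 and 6.47 in the combined knockout. All 8 single-knockout arrays were above the other 7, and the interaction was -2.83 (SE 0.31, adjusted p = 5.54e-06). Its adjusted p was at most 8e-05 in the 15 fits that left out 1 array. With the spread of the 15 arrays alone it was 0.00418. The gene rose on loss of E2f8 from the wild type by 1.45 (adjusted p = 0.00179). It fell by 1.63 on loss of E2f7 from the E2f8 knockout (adjusted p = 8.96e-05) and by 1.38 on loss of E2f8 from the E2f7 knockout (adjusted p = 0.00155). The rise of 1.19 on loss of E2f7 from the wild type did not pass (adjusted p = 0.0631).

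Among the 15 lowest interactions, those that also held in each of the 15 fits were of Sucnr1, the succinate receptor, Gdpd3, a lysophospholipase D, Cyp2c38, Cyp2c54, Mme, the peptidase neprilysin, Gstk1, a glutathione transferase, and Cda, cytidine deaminase. Sucnr1 read 7.43, 6.29 and 8.15 in the wild type, 8.06 to 9.30 in the single knockouts and 6.17, 7.06, 6.80 and 7.67 in the combined knockout, with an interaction of -3.18 (SE 0.56, adjusted p = 0.00366). Gdpd3 read 7.98, 7.54 and 9.71 in the wild type, 9.75 to 10.06 in the single knockouts and 8.37, 9.18, 8.89 and 7.63 in the combined knockout. The 8 single-knockout arrays were above the other 7, wild-type sample 3 by the narrowest margin, and the interaction was -2.95 (SE 0.50, adjusted p = 0.00266). Gstk1 was likewise apart in all arrays, at 11.73 to 12.23 in the single knockouts and 10.85 to 11.63 in the others (-1.58, SE 0.24, adjusted p = 0.00114). Tubb2a, Ank3, Etnppl and Slc45a3, with values of -1.97, -1.65, -1.64 and -1.52, lost their calls in 13, 6, 11 and 14 of the 15 fits. With wild-type samples 4 and 5 in the wild-type mean, Sucnr1 had -2.16 (adjusted p = 0.136) and Cda -1.14 (adjusted p = 0.0996), and Tubb2a, Ank3 and Etnppl did not pass either (adjusted p = 0.285, 0.0558 and 0.334).

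Trhde, the ectopeptidase that degrades thyrotropin-releasing hormone, and B4galnt1, the ganglioside GM2/GD2 synthase, were low in the E2f8 knockout and not in the other genotypes. Trhde read 6.01, 5.83 and 6.08 in the wild type, 5.82 to 6.43 in the E2f7 knockout, 4.33, 4.24, 4.49 and 4.40 in the E2f8 knockout and 5.94 to 6.32 in the combined knockout. No array of the E2f8 knockout overlapped any other, and the interaction was 1.60 (SE 0.29, adjusted p = 0.00396). It was 0.71 (adjusted p = 0.453) when wild-type samples 4 and 5 entered the wild-type mean. B4galnt1 read 9.38, 9.64 and 9.28 in the wild type, 8.52 to 9.46 in the E2f7 knockout and 8.32 to 9.65 in the combined knockout. In the E2f8 knockout sample 1 read 8.49 and samples 2, 3 and 4 read 5.26, 4.68 and 5.40. The interaction of 3.57 (SE 0.91, adjusted p = 0.0438) lost its call in 12 of the 15 fits. It was 1.91 (adjusted p = 0.0645) when the probe sets of each gene were averaged. At 3 weeks, in other samples, Trhde read 2.70, 2.27, 2.32 and 2.37 in the E2f8 knockout and 4.03 to 4.93 in the other 3 genotypes, and B4galnt1 read 7.99, 4.05, 3.88 and 4.58 against 8.26 to 9.41. Sample 1 of the E2f8 knockout was the high one for B4galnt1 at both ages. The Trhde interaction at 3 weeks was 2.14 (adjusted p = 0.000398), and that of B4galnt1 was 4.00 (adjusted p = 0.0661). Wild-type samples 4 and 5 at 2 months, in the other distribution, had low Trhde levels of 3.02 and 4.50. Both genes lie on the chromosome of E2f7, with 14 and 96 measured genes between. Of 865 measured genes on that chromosome 10 had an interaction at 2 months (1.16%, against 1.09% overall). Saa1, Saa2 and Gdpd3 lie on the chromosome of E2f8. Of 1420 measured genes there 14 had an interaction at 2 months (0.986%). The part of linkage to a deleted gene in these values was not tested.

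The cell cycle genes that E2F factors are known to control were read by list. Ccne1, which encodes cyclin E1 and drives entry into S phase, was the single member past the threshold of 56 DNA replication genes (1.79%, against 1.09% of all genes). It read 7.23, 7.21 and 7.21 in the wild type, 6.89, 7.16, 7.04 and 7.10 in the E2f7 knockout, 6.86, 6.85, 6.72 and 6.79 in the E2f8 knockout and 7.40, 7.13, 7.31 and 7.08 in the combined knockout. The E2f8 knockout was below every other array, and the interaction was 0.59 (SE 0.12, adjusted p = 0.0107), which held in each of the 15 fits. It fell by 0.41 on loss of E2f8 from the wild type (adjusted p = 0.0303) and rose by 0.43 on loss of E2f7 from the E2f8 knockout (adjusted p = 0.00936). The median over the replication genes was -0.15, with 2 positive and 5 negative at an unadjusted p under 0.05. Of 72 mitosis and cytokinesis genes none passed by limma, with a median of -0.05 and 3 at an unadjusted p under 0.05. The kinetochore gene Spc24 came nearest (-0.98, SE 0.26, adjusted p = 0.0552). Of 29 regulators of hepatocyte polyploidy Ccne1 was again the single member (3.45%), and the next smallest p was that of Yap1 (0.25, adjusted p = 0.536). None of 22 p53 target genes and none of 28 DNA repair genes passed by limma, with 2 and 4 at an unadjusted p under 0.05. None of E2f1 to E2f6 had an interaction past the threshold, at -0.19 to 0.18.

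Markers of liver macrophages stood higher in some of the same arrays. Of 22 Kupffer cell and macrophage markers, 21 estimates were above 0, the median was 0.67, and Mpeg1 and C1qb passed (9.09%, against 0.588% of all genes, with values of 1.00 and 1.03, SE 0.23 and 0.25, adjusted p = 0.0232 and 0.0374). Neither passed without wild-type sample 1 or without wild-type sample 2, and 15 members, all positive, had an unadjusted p under 0.05. Their mean level was 8.63, 8.41 and 8.26 in the wild type, 7.94 to 8.25 in the E2f7 knockout, 7.65 to 8.07 in the E2f8 knockout and 8.31, 8.05, 8.04 and 8.24 in the combined knockout. Their part in the acute phase values was not tested. Of 15 neutrophil and monocyte markers, 22 lymphocyte markers, 23 sinusoidal endothelial markers, 22 stellate cell markers and 12 biliary markers none passed by limma, with 3, 2, 5, 0 and 0 at an unadjusted p under 0.05. The mean level of the neutrophil and monocyte markers was 5.96, 5.96 and 5.61 in the wild type, 5.98, 5.76, 5.84 and 5.83 in the combined knockout and 5.59 to 5.74 in the single knockouts, so it was high in the same arrays as the acute phase genes. Their part in those values was not tested either. The 3′ minus 5′ signal of the Gapdh and Actb control probe sets, a measure of RNA integrity, was 1.04 ± 0.0860 (SD, n = 7) over the wild type and combined knockout and 1.04 ± 0.0421 (SD, n = 8) over the single knockouts. The difference was -0.00102 (exact permutation test, two-sided, p = 0.978). This test compares means only, and single arrays ran from 0.936 to 1.15. The mean over the wild type and combined knockout was 1.06 without wild-type sample 1 or combined knockout sample 1. It was 1.02 without wild-type sample 2 or combined knockout sample 3, so low and high arrays offset each other there.

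At 3 weeks the same contrast gave 23 genes (0.126%) in other samples, 15 positive (0.0824%) and 8 negative (0.044%). That count was 8, 10, 14 and 14 without E2f7 knockout sample 3, wild-type sample 3, E2f7 knockout sample 1 and E2f7/E2f8 knockout sample 3 of that age, and at most 31, without wild-type sample 2. It was 2 with the 3-week arrays alone and 1 without the distribution term. Of the 199 genes, 112 (56.3%) had the same sign at 3 weeks, as had 49.2% of all genes. The median size of their interactions was 0.91 at 2 months and 0.17 at 3 weeks. The acute phase list had a median of -0.03 at 3 weeks with 10 of 25 estimates above 0, and Saa2 had a value of 0.01. The Saa2 levels at that age were 6.15 to 7.23. The macrophage list was positive at both ages, with a median of 0.48 at 3 weeks and all 22 estimates above 0. The medians of 2 other lists had the opposite sign at 3 weeks. For xenobiotic genes it was 0.15, with 25 of 34 estimates above 0. For the unfolded protein and amino acid response it was -0.15, with 13 of 34 above 0. Trhde and Gstt2 passed at both ages, and Gstt2, a glutathione transferase gene, did so with opposite signs (-0.92 at 2 months and 1.31 at 3 weeks).

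The change of the interaction between the ages was itself tested and passed for 39 genes (0.214%), of which 15 had a higher interaction at 2 months (0.0824%) and 24 a lower one (0.132%). Of the 39, 27 were among the 199. Osbpl3 changed by -3.16 (adjusted p = 0.000708), with an interaction of 0.34 at 3 weeks. Gstt2 changed by -2.23 (adjusted p = 0.000708) and Saa1 by 4.69 (adjusted p = 0.0458). Saa2, Lcn2 and Orm2, with changes of 6.16, 5.52 and 5.06, did not pass (adjusted p = 0.0872, 0.156 and 0.0510). Osbpl3 read 3.24 to 3.98 and Orm2 4.50 to 4.79 over the 3-week arrays. At such low levels an interaction could go unseen, so a small value there does not show that it was absent. The arrays of the 2 ages have different distributions of values, so age and normalization cannot be told apart in the levels, while the interaction is taken within 1 distribution at each age. The count of 39 ranged from 2 without wild-type sample 2 of the 2-month arrays to 74 without wild-type sample 3, and it was over 1.5 times lower in 21 of the 30 fits that left out 1 array.

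**Figure D3:**
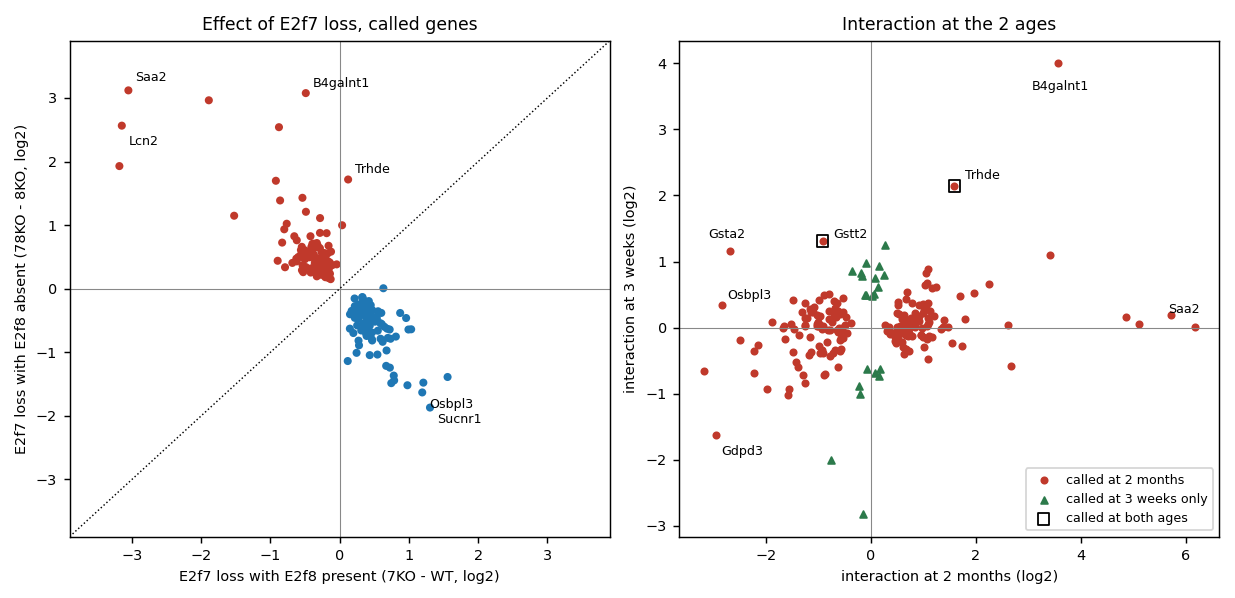
The left panel plots the effect of E2f7 loss on the 199 genes with an interaction at 2 months, with E2f8 present on the x axis and absent on the y axis (log2 differences, red for positive and blue for negative interactions, dotted line where both effects are equal). The right panel plots the interaction at 2 months (x axis) against that at 3 weeks (y axis, both log2) for genes past the threshold at either age. Most genes of the left panel lie in the quadrants of opposite sign, with Saa2 at -3.05 and 3.12, and Trhde and Gstt2 are the 2 genes marked at both ages. The interaction is the y value minus the x value of the left panel.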

How the data were processed

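Liver RNA was hybridised to Affymetrix mouse arrays. The deposited values are log2 signals summarised by RMA, per the submitters' processing notes, for 45101 probe sets. Probe sets with 1 gene symbol (34945) were reduced to the brightest per gene over all 35 arrays, which left 18193 genes, while 932 probe sets with several symbols and 9160 with none were left out. The arrays fell into 3 distributions of values, 1 of which holds the 15 arrays of the comparison. Symbols matched RefSeq for 18145 genes, and promoters came from its GRCm38.p6 table.

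A linear model was fitted with limma 3.58.1 in R 4.3.3 to all 35 arrays, with 9 group means and a term for the distribution that holds wild-type samples 4 and 5, and moderated with an intensity trend (25 residual degrees of freedom). P-values were adjusted by the Benjamini-Hochberg method over all genes at 0.05. The RNA integrity measure was tested with an exact permutation test (scipy 1.17.1). The fit was tested on simulated data for this interaction, where 24, 45, 49 and 50 of 50 seeded genes were recovered at sizes of 0.5, 1, 2 and 4 on the log2 scale, with 7 false calls. The simulated noise was independent between genes and equal in all groups. In the data the Saa2 SD was 2.65 in the wild type and 0.33 in the E2f7 knockout. The simulation therefore does not give the rate of false calls in this comparison. The number of arrays limits the precision. Genes named in the text are the 15 highest and 15 lowest interactions past the threshold, the E2f genes, up to 4 genes past the threshold of each list by smallest p, and 2 further ones of the cell cycle and p53 lists. Others are said to have been chosen after their values were seen or are named because they make up a count. The comparison, the members of the lists and the rules were chosen with earlier results of these data known. The alternatives were other sets of arrays, no distribution term, quantile normalization, a filter on dim genes, the mean of probe sets, no trend, array weights, a replicate block and leaving out each array.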

Additional observations from a re-analysis of the deposited data

Results flagged for a closer look

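In 171 groups of 4 samples over the 57 named genes, 10 held a sample whose gap to the nearest other, divided by the range of the group, exceeded Dixon's critical value of 0.829, which chance gives in about 1 group in 20. In the E2f7/E2f8 knockout at 2 months, sample 1 was the highest for Lbp (11.81) and Hpx (14.57), sample 2 the lowest for Nr1d1 (8.10) and Gadd45a (5.32), and sample 4 the highest for Osbpl3 (6.47, the others 5.27 to 5.43). In the E2f7 knockout sample 4 was the lowest for Gdpd3 (9.75) and Slc45a3 (8.12). In the E2f8 knockout sample 1 was the lowest for Fgl1 (11.53), and sample 3 the lowest for Gsta2 (9.53, the others 10.60 to 10.66) and Spc25 (6.98).

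The interaction differed between the ages by the test of that difference for 7 of the named genes. It was larger at 2 months than at 3 weeks by 4.69 for Saa1, by 3.26 for Fgl1 and by 0.46 for Hpx (adjusted p = 0.0458, 0.0349 and 0.0408). It was lower at 2 months, with differences of -3.16 for Osbpl3, -3.84 for Gsta2, -1.97 for Cyp2c54 and -1.05 for Acaa1b (adjusted p = 0.000708, 0.0408, 0.0416 and 0.0409).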

How the results depend on the processing

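The count of 199 genes was 287 with the 15 arrays alone (167 genes shared), 190 without the distribution term (141 positive and 49 negative), 223 after quantile normalization, 262 without the dimmest 40% of genes, 152 with probe sets averaged and 582 with array weights. It ran from 60 to 268 when 1 array was left out, and was 1, 4 and 0 without wild-type samples 1 and 2, without E2f7/E2f8 knockout samples 1 to 3, and without both sets, which were added after the data were seen. Every setting kept the sign of all 199 genes (189 after the dim filter), except 1 gene without the distribution term. These settings share arrays with the fit that chose the genes, so the kept signs are no further test. Of the 57 named genes 43 had a call, and 19 of these lost it without the distribution term. With probe sets averaged 6 lost it, namely Pdia6, Etnppl, Tubb2a, B4galnt1, Nfkbiz and Abcc3. Their adjusted p in that setting was 0.536, 0.772, 0.158, 0.0645, 0.0645 and 0.0508.

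Loss of E2f7 from the wild type gave 1 gene (Yae1d1), 40 without the distribution term, 3 after quantile normalization, 0 with probe sets averaged (1304 at an unadjusted p under 0.05), 59 with array weights, and 0 to 39 leaving out 1 array. Loss of E2f7 from the E2f8 knockout gave 116 genes, 56 without the distribution term, 75 with probe sets averaged, 797 with array weights and 14 to 137. Loss of E2f8 from the wild type gave 64 genes, 111 with the 15 arrays alone, 282 without the distribution term, 252 with array weights and 7 to 100. Loss of E2f8 from the E2f7 knockout gave 43 genes, 4 with the 15 arrays alone, 2 without the distribution term, 431 with array weights and 4 to 68. The interaction at 3 weeks gave 23 genes, 2 with its own arrays alone, 1 without the distribution term and 8 to 31. Its change with age gave 39 genes, 9 without the distribution term, 71 with array weights and 2 to 74. The RNA integrity difference ran from -0.0200 to 0.0162. The cause of these changes was not tested.

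Replicate numbers showed no pairing of the samples. With the group mean of each gene subtracted, same-numbered arrays correlated at -0.225 to 0.322 over 21 pairs. Different-numbered arrays correlated at -0.303 to 0.386 over 63 pairs. With the replicate block the count was 225, and the change with age gave 17 genes.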

Other observations

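Other lists of liver genes had 1 member or none with an interaction at 2 months, where 1.09% of all genes had one. Of 22 bile acid synthesis and transport genes 1 passed (4.55%), the efflux transporter gene Abcc3 (-0.999, SE 0.25, adjusted p = 0.0399), which lost its call in 11 of the 15 fits that left out 1 array and with wild-type samples 4 and 5 in the wild-type mean (adjusted p = 0.237). Etnppl was the single member past the threshold of 14 periportal genes (7.14%), Nr1d1 that of 24 circadian clock genes (4.17%), Igfbp1 that of 26 glucose and glycogen genes (3.85%) and Hpx, which carries heme in plasma, that of 30 secreted and metabolic hepatocyte genes (3.33%). Hpx read 14.54, 14.51 and 14.24 in the wild type, 14.19 to 14.30 in the single knockouts and 14.57, 14.40, 14.41 and 14.39 in the combined knockout. Its interaction was 0.39 (SE 0.07, adjusted p = 0.00366), and 0.20 without wild-type samples 1 and 2. By limma no gene passed among 18 pericentral, 20 cholesterol synthesis, 15 male-biased, 16 female-biased, 14 erythroid and 8 MHC class II genes, with 2, 2, 1, 1, 1 and 0 at an unadjusted p under 0.05.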
